A study of Mus musculus with 7 samples.

Results

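The genes of the Fanconi anaemia pathway and of homologous recombination were followed in G1E cells, a mouse erythroid line without functional GATA1 that grows as immature precursors. The members were the genes named Fanc followed by a letter and 29 named partners. Of the 39 genes so chosen, 35 had a probeset annotated with their symbol alone, out of 22180 genes measured in that way. Fanca and Rad54b had only probesets shared with another gene, and Xrcc2 and Rbbp8 were not among the annotated probesets, so these genes were not analysed here. Atr had 2 probesets, and the brighter was used.

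Control G1E cells, unedited at Lockd per the genotype label, were measured on 3 arrays and G1E cells carrying a CRISPR/Cas9 deletion of Lockd on 4, with no other treatment or time point. Lockd, a gene of a long non-coding RNA, lies beside Cdkn1b, which encodes p27, an inhibitor of cyclin-dependent kinases. Clones is the word of the series' design text for the samples, which does not say how many clones there were or whether the replicates were separate cultures, so the p-values measure only the spread between these samples. Deletion takes away DNA together with the transcript, and effects of either cannot be told apart here.

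The Fanconi anaemia pathway removes crosslinks that join the strands of DNA. A core complex, with the ubiquitin-conjugating enzyme Ube2t, attaches ubiquitin to the pair Fancd2 and Fanci, after which nucleases cut the crosslink out and homologous recombination repairs the resulting break. Recombination begins with resection by Mre11a, Rad50 and Nbn, continues with the loading of the recombinase by Brca1, Palb2 and Brca2, and is overseen by the kinases Atm, Atr, Chek1 and Chek2. Loss of the pathway is known for bone marrow failure, and many of its genes are transcribed in S phase under E2F factors.

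The sequences in front of the members were examined because E2F factors are known to act there. In the RefSeq table of promoters (GRCm38.p6), 31 of the 35 members had an entry, and the 250 bases before the gene's first listed start were searched on both strands. An E2F word was TTCCCGC or TTCGCGC or TTGCCGC or TTGGCGC, or the reverse complement of one. Ube2t and Fancm are shown because they alone held more than 1 such word. Brca2 and Bard1 are shown because, of the genes that load the recombinase, these held such a word, 1 each. The sequences run 5′ to 3′ in the direction of the gene and end at the base before the start, with E2F words in capitals. Ube2t lies at chr1:134962315-134962564, plus strand, Fancm at chr12:65075353-65075602, plus strand, Brca2 at chr5:150522371-150522620, plus strand and Bard1 at chr1:71102973-71103222, minus strand.
Ube2t: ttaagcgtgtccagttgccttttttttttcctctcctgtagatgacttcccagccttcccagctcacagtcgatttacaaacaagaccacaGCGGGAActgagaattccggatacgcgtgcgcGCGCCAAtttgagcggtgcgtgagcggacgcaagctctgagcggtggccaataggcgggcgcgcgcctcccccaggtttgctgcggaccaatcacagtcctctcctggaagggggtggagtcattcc
Fancm: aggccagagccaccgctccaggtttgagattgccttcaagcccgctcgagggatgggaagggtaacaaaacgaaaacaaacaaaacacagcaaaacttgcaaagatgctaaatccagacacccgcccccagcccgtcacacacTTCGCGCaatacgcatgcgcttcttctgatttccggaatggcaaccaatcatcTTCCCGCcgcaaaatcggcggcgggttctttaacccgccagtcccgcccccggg
Brca2: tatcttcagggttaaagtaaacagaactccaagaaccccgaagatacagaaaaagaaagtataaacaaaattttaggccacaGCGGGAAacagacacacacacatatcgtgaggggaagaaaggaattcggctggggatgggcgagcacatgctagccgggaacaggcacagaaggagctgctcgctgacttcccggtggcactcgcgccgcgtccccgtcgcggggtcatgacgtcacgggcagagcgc
Bard1: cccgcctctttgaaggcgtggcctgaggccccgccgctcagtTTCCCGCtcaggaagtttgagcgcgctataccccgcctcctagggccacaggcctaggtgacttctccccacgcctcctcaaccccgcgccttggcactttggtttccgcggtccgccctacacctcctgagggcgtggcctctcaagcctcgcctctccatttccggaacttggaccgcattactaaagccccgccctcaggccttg

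E2F words were present before 10 of the 31 members, or 32.3%, against 7.97% of the 27025 genes in the table and 10.1% of the 16990 of those that the array measured. The 10 were Fancb, Fancf, Fancg, Fancm, Faap100 and Ube2t of the core complex and its enzyme, with Bard1, Brca2, Rad52 and Chek2. In Ube2t they began 159 and 127 bases before the start, and in Fancm 107 and 54 bases before it. In Ube2t and Fancf an E2F word shared bases with a CCAAT word. The word CCAAT, the box bound by NF-Y, stood before 16 of 31 members, or 51.6%, against 35.6% of measured genes, while the CHR words TTTGAA and TTCGAA stood before 3 members, or 9.68%, against 15.6%. GATA words (AGATAA or TGATAA or AGATAG or TGATAG) were likewise before 3 members, or 9.68%, against 24.1% of measured genes. Members' windows had a median of 57.6% G and C and those of measured genes 55.6%. The part of base composition in these shares was not tested. A match is a run of letters and not a binding site.

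Values below are the authors' log2 signals after RMA, the usual background correction, quantile normalization and summary of Affymetrix probes. They are listed in replicate order, and a probeset passed where its adjusted p was under 0.05. Lockd, the deleted gene, read 7.89, 8.04 and 7.80 on the 3 control arrays and 5.09, 5.15, 4.17 and 5.15 on the 4 deletion arrays. Its fall was the check of the labels, and no deletion array reached a control array. The difference was -3.02 (SE 0.23), with an adjusted p of 0.0162 in limma over 23521 probesets, and Cdkn1b differed by -1.14 (SE 0.10, 95% interval -1.37 to -0.91) with an adjusted p of 0.0251. Those were the only 2 probesets that passed, 0.0085% of those tested. With one array fewer, the Lockd difference stayed between -3.10 and -2.78, but its adjusted p in limma was 0.106, 0.0954 and 0.0941 without control replicates 1, 2 and 3 and 0.0850 and 0.0694 without deletion replicates 1 and 4. The adjusted p of Cdkn1b was 0.0941 to 0.189 with any array other than deletion replicate 2 left out, and its difference stayed between -1.21 and -1.08. Erythroid markers were present, with Car2 averaging 13.27 in control and 13.22 in deletion cells, Tal1 10.09 and 10.05, and Slc4a1 8.16 and 8.09. Among mast cell markers, Cpa3 averaged 11.15 and 10.45, and Ms4a2 9.07 and 9.17. The control SDs of Cpa3 and Ms4a2 were 1.41 and 1.33. Mcpt8 and Hdc, listed with Cpa3 and Ms4a2, averaged 4.58 and 5.10 in control cells. Among the 27 measured markers of erythroid and other cell types, 0 passed in limma. An unadjusted p under 0.05 was found for 3 of them, where 4.64% of all tested probesets had one. These were Tfrc at -0.17, Mpo at 0.24 and Gp9 at -0.33. Mpo was dim, averaging 5.10 in control and 5.34 in deletion cells, below the arrays' medians of 5.60 to 5.74. Control replicate 2 was the extreme array on the first principal component, with 29.9% of all variance, so values are given with and without it where it matters.

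No member of the pathway differed between control and deletion cells by the test. In limma with Benjamini-Hochberg adjustment over all probesets, 0 of 35 members passed, every adjusted p was 0.999, and 0 of 35 had an unadjusted p under 0.05, where 4.64% of all tested probesets had. The smallest unadjusted p was that of Faap24, at 0.103. In 0 of 35 members did the control and deletion arrays fall into separate ranges, where 5.19% of all genes did. Differences, given throughout as deletion minus control on the log2 scale, ran from -0.08 for Atm to 0.16 for Eme1.

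The 95% intervals give a range for the measured difference of each gene, from the spread between these samples only. They do not cover all 35 members jointly. The 95% intervals of all 35 members lay between -0.26, the lower end for Slx4, and 0.40, the upper end for Xrcc3, which corresponds to 16.5% lower and 31.7% higher. For 21 members the whole interval lay within 0.25 of zero. The intervals of Lockd and Cdkn1b did not reach those of any member. Standard errors of the members ran from 0.06 to 0.12, with a median of 0.07 against 0.09 over all genes. RMA values of dim probesets can understate differences. Each member's mean lay above the median of the tested probesets, which does not show that its difference was not understated. Fancc, the dimmest member, averaged 5.91, close to the arrays' medians of 5.60 to 5.74.

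**Figure D1:**
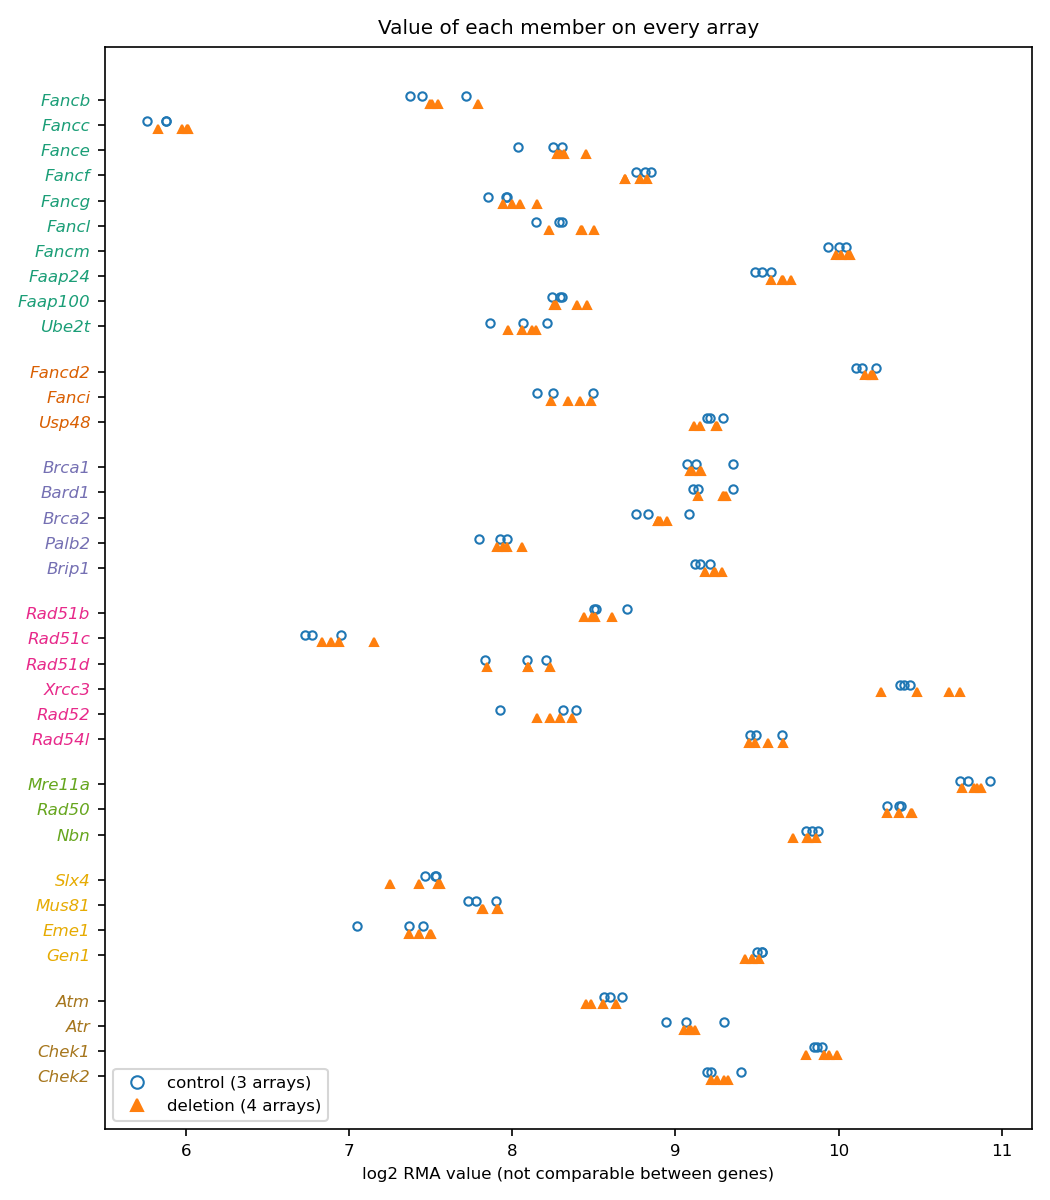
Each point is the log2 RMA value of a member on 1 array, with open circles for the 3 control arrays and filled triangles for the 4 deletion arrays, and genes coloured by role. The ranges of the groups overlap in all 35 genes. Levels of different genes are not comparable.

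More members were higher than lower in deletion cells, by a margin that depended on single control arrays, and none of them passed. Of the 35, 26 had a positive difference and 9 a negative one, with a median of 0.04, while 52.2% of all genes were positive, with a median of 0.01. With each array centred on its own median, 22 of 35 members were positive, against 42.1% of all genes. The members' median was then 0.02 and that of all genes -0.02. Without control replicate 1 the count was 19 of 35 with a median of 0.03, and without control replicate 3 it was 21 of 35 with a median of 0.02. Without control replicate 2 it was 28 of 35 with a median of 0.07.

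**Figure D2:**
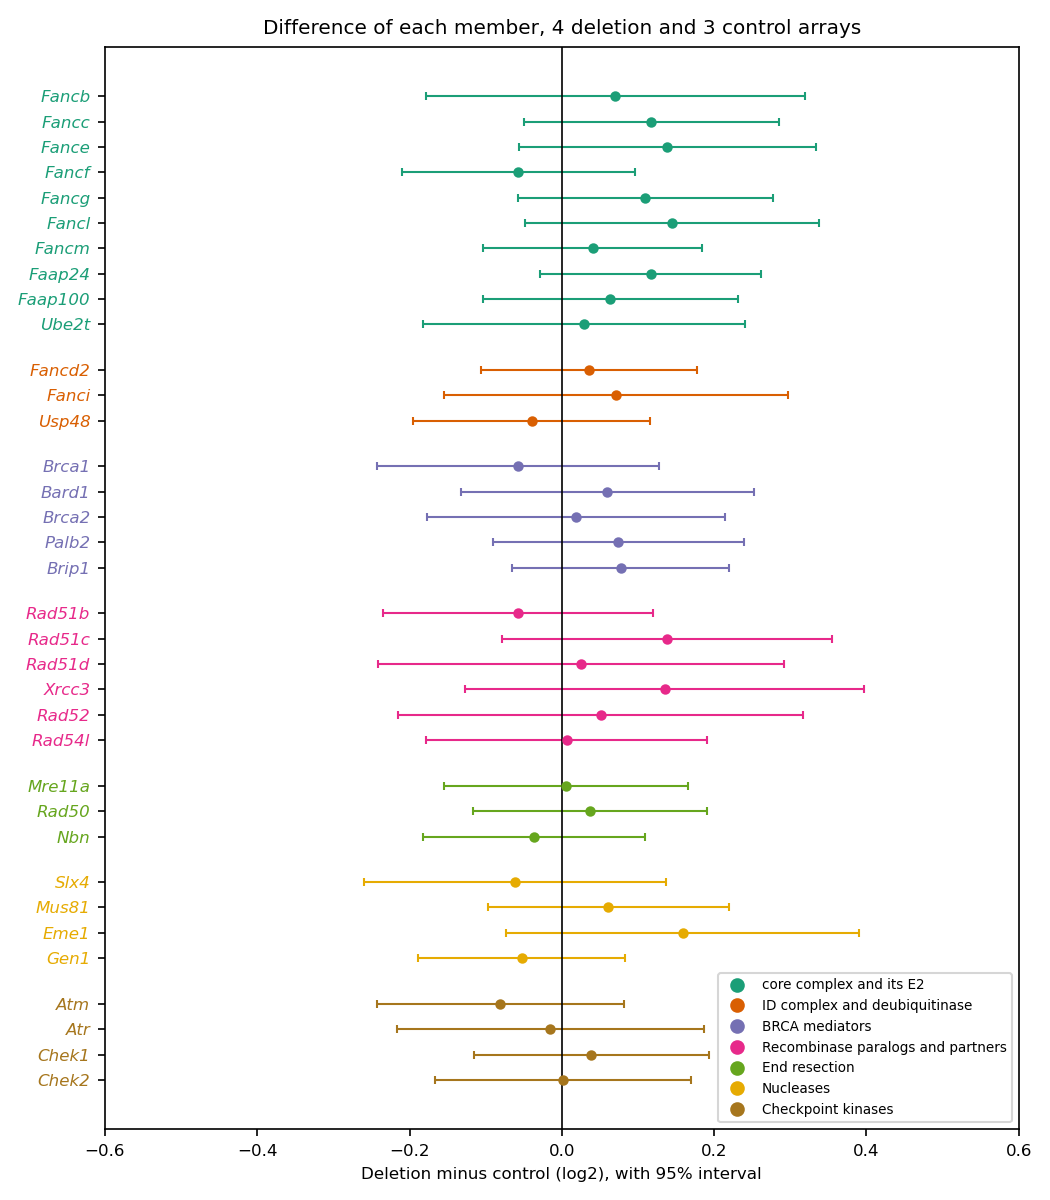
Points are the deletion minus control difference of each member on the log2 scale and bars its 95% interval from limma, with 3 control and 4 deletion arrays, coloured and grouped by role. All 35 intervals include zero and lie between -0.26 and 0.40.

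Core complex genes had a median difference of 0.09, with differences from -0.06 to 0.14 and 0 of 10 passing. Positive differences were found for 9 of 10, the enzyme gene Ube2t included, also after centring of the arrays, and for 7 of 10 without control replicate 3. The median was 0.05 without control replicate 3 or without deletion replicate 2. Faap24, which encodes a DNA-binding partner of Fancm, read 9.49, 9.59 and 9.53 on the 3 control arrays and 9.65, 9.71, 9.59 and 9.66 on the 4 deletion arrays. The lowest deletion and the highest control array met at 9.59, so the groups touched. Its difference was 0.12 (SE 0.06, 95% interval -0.03 to 0.26), with an adjusted p of 0.999 in limma. Fancl, the ubiquitin ligase subunit, read 8.15, 8.29 and 8.31 on the 3 control arrays and 8.22, 8.42, 8.43 and 8.50 on the 4 deletion arrays. The deletion arrays 2 to 4 lay above all control arrays and deletion replicate 1 lay among them. The difference was 0.14 (SE 0.08, 95% interval -0.05 to 0.34), or 0.20 without deletion replicate 1 and 0.10 without control replicate 1.

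Fance, which bridges the core complex to Fancd2, read 8.25, 8.30 and 8.04 on the 3 control arrays and 8.29, 8.45, 8.32 and 8.28 on the 4 deletion arrays. Control replicate 3 was the low array, and the difference of 0.14 (SE 0.09, 95% interval -0.06 to 0.33) became 0.06 without it. Fancc, the partner of Fance, had a control mean of 5.84 ± 0.07 (SD, n = 3), a deletion mean of 5.96 ± 0.09 (SD, n = 4) and a difference of 0.12 (SE 0.07, 95% interval -0.05 to 0.28). Fancg, a subunit that binds Fanca, had a control mean of 7.93 ± 0.06 (SD, n = 3) and a deletion mean of 8.04 ± 0.09 (SD, n = 4) and differed by 0.11 (SE 0.07, 95% interval -0.06 to 0.28). The interval of each of these genes included zero.

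The other core genes lay nearer to zero. Fancb and Faap100, which form a module with Fancl, differed by 0.07 (SE 0.11) and 0.06 (SE 0.07). Fancm, the helicase-like translocase that anchors the complex to DNA, read 9.93 to 10.05 on control and 9.99 to 10.07 on deletion arrays, a difference of 0.04 (SE 0.06). Fancf, an adaptor subunit, was the single core gene with a negative difference, -0.06 (SE 0.07), and deletion replicates 1 and 4 were its lowest arrays. Ube2t read 8.06, 8.21 and 7.87 on the 3 control arrays and 7.98, 8.06, 8.12 and 8.15 on the 4 deletion arrays. Control replicate 2 was its highest and control replicate 3 its lowest array, so that both ends of the range were control arrays, and the difference was 0.03 (SE 0.09, 95% interval -0.18 to 0.24).

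The substrates of the core complex and Usp48 differed by -0.04 to 0.07, with 0 of 3 passing. Fancd2 read 10.14, 10.23 and 10.11 on the 3 control arrays and 10.21, 10.20, 10.21 and 10.16 on the 4 deletion arrays. The 4 deletion arrays spanned less than the control arrays and lay within their range, with a difference of 0.04 (SE 0.06, 95% interval -0.11 to 0.18). Fanci, its partner, had a control mean of 8.30 ± 0.18 (SD, n = 3) and a deletion mean of 8.37 ± 0.10 (SD, n = 4). The Fanci difference of 0.07 (SE 0.10) was 0.17 without control replicate 2 and -0.002 without control replicate 1. Usp48, a deubiquitinase known from human cells to oppose the pathway, differed by -0.04 (SE 0.07). All these genes had control replicate 2 as their highest array.

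The genes that load the recombinase gave differences from -0.06 to 0.08, with a median of 0.06 over 5 genes and 0 passing. That median rested on single control arrays, at 0.11 without control replicate 2 and 0.03 and 0.01 without control replicates 1 and 3. Brca1, a ubiquitin ligase that promotes resection and recruits Palb2, read 9.13, 9.36 and 9.07 on the 3 control arrays and 9.10, 9.09, 9.16 and 9.15 on the 4 deletion arrays. Control replicate 2 lay above every other array, which stood between 9.07 and 9.16. The difference of -0.06 (SE 0.08, 95% interval -0.24 to 0.13) was 0.03 without that array. Brca2, which loads the recombinase onto single-stranded DNA, read 8.76, 9.08 and 8.83 on the 3 control arrays and 8.95, 8.90, 8.89 and 8.90 on the 4 deletion arrays. Here too control replicate 2 was highest and the other control arrays were lowest, with the deletion arrays between them at 8.89 to 8.95. The difference of 0.02 (SE 0.09, 95% interval -0.18 to 0.21) was 0.11 without control replicate 2 and -0.05 without control replicate 1.

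Bard1, the partner of Brca1 in the ligase, read 9.14, 9.35 and 9.11 on the 3 control arrays and 9.29, 9.30, 9.31 and 9.14 on the 4 deletion arrays. Deletion replicate 4 was set apart below the other deletion arrays, level with control replicates 1 and 3. The difference was 0.06 (SE 0.08, 95% interval -0.13 to 0.25), or 0.14 without control replicate 2 and 0.01 without control replicate 3. Palb2, the link between Brca1 and Brca2, had a control mean of 7.90 ± 0.09 (SD, n = 3) and a deletion mean of 7.97 ± 0.07 (SD, n = 4) and differed by 0.07 (SE 0.07). Brip1, a helicase that binds Brca1, had a control mean of 9.16 ± 0.05 (SD, n = 3) and a deletion mean of 9.24 ± 0.04 (SD, n = 4) and differed by 0.08 (SE 0.06). Neither gene had an unadjusted p below 0.05.

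The recombinase paralogs and their partners held the noisiest members. Over 6 measured genes the median difference was 0.04 and the median residual SD 0.15, against 0.08 over all members. The median difference turned to -0.05, with 2 of 6 positive, without control replicate 1 and was 0.11, with 6 of 6 positive, without control replicate 2. It was 0.07 and 0.09 without control replicate 3 and deletion replicate 1, and 0.01 without deletion replicate 3. Xrcc3, a paralog that pairs with Rad51c, read 10.44, 10.40 and 10.37 on the 3 control arrays and 10.26, 10.74, 10.48 and 10.68 on the 4 deletion arrays. The control arrays lay close together while deletion replicate 1 was below and deletion replicates 2 to 4 were above them. The difference was 0.14 (SE 0.11, 95% interval -0.13 to 0.40), or 0.23 without deletion replicate 1 and 0.07 without deletion replicate 2. Rad51c read 6.95, 6.77 and 6.73 on the 3 control arrays and 6.89, 6.84, 7.15 and 6.94 on the 4 deletion arrays. Deletion replicate 3 was its highest array, and the difference was 0.14 (SE 0.09, 95% interval -0.08 to 0.36), or 0.07 without that array.

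Rad51b and Rad51d, which sit with Rad51c in a further paralog complex, differed by -0.06 (SE 0.08) and 0.02 (SE 0.12). Rad52, an annealing protein, read 7.93, 8.39 and 8.31 on the 3 control arrays and 8.15, 8.23, 8.37 and 8.29 on the 4 deletion arrays. Control replicate 1 was lowest and control replicate 2 highest, so the deletion arrays fell inside the control range and the difference of 0.05 (SE 0.12, 95% interval -0.21 to 0.32) was -0.09 without control replicate 1. Rad54l, a motor protein that remodels the recombinase filament, differed by 0.01 (SE 0.08). Rad52 and Fancd2 lie on chromosome 6 with Lockd and Cdkn1b in GRCm38.p6, and neither passed the test.

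Resection genes were among the most even. Mre11a, the nuclease of the complex, read 10.80, 10.93 and 10.75 on the 3 control arrays and 10.88, 10.85, 10.83 and 10.76 on the 4 deletion arrays. The deletion arrays lay within the range of the control arrays, with a difference of 0.01 (SE 0.07, 95% interval -0.15 to 0.17). Rad50, its ATPase, differed by 0.04 (SE 0.07) and Nbn, which brings Atm to breaks, by -0.04 (SE 0.06). The median residual SD of these 3 genes was 0.06.

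Nuclease genes held both the largest positive member and the lowest interval end. Eme1, the partner subunit of Mus81, read 7.37, 7.45 and 7.05 on the 3 control arrays and 7.43, 7.50, 7.50 and 7.37 on the 4 deletion arrays. Control replicate 3 was far below every other array, which stood between 7.37 and 7.50, and the difference of 0.16 (SE 0.10, 95% interval -0.07 to 0.39) was 0.04 without that array and 0.24 without control replicate 2. Slx4, the scaffold that gathers nucleases, read 7.53, 7.53 and 7.47 on the 3 control arrays and 7.43, 7.55, 7.56 and 7.25 on the 4 deletion arrays. Deletion replicate 4 was the low array, and the difference of -0.06 (SE 0.09, 95% interval -0.26 to 0.14) was 0.00 without it. Mus81 differed by 0.06 (SE 0.07) and Gen1, a resolvase of crossed strands, by -0.05 (SE 0.06).

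The checkpoint kinases, which signal from breaks and stalled forks to the cell cycle, had a median difference of -0.01. Of the 4, 2 were positive as deposited and 1 with the arrays centred, against 52.2% and 42.1% of all genes. The median was -0.06 without control replicate 1 and 0.01 without control replicate 2. Atm, the kinase of double-strand breaks, read 8.60, 8.67 and 8.56 on the 3 control arrays and 8.45, 8.56, 8.64 and 8.48 on the 4 deletion arrays. Deletion replicates 1 and 4 lay below the control arrays, deletion replicate 2 was level with the lowest of them and deletion replicate 3 lay among them, for a difference of -0.08 (SE 0.07, 95% interval -0.24 to 0.08). Atr, the kinase of stalled forks, read 8.95, 9.30 and 9.07 on the 3 control arrays and 9.05, 9.08, 9.12 and 9.10 on the 4 deletion arrays. Control replicate 2 was the high array and control replicate 1 the low one. The difference was -0.01 (SE 0.09, 95% interval -0.22 to 0.19), or 0.08 without control replicate 2 and -0.09 without control replicate 1. Its dimmer probeset differed by 0.01 (SE 0.10).

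Chek1, the kinase that acts after Atr, read 9.87, 9.90 and 9.85 on the 3 control arrays and 9.99, 9.80, 9.91 and 9.94 on the 4 deletion arrays. Deletion arrays lay on both sides of the control arrays, and the difference was 0.04 (SE 0.07, 95% interval -0.12 to 0.19). Chek2, which acts after Atm, had a control mean of 9.27 ± 0.11 (SD, n = 3) and a deletion mean of 9.27 ± 0.05 (SD, n = 4) and differed by 0.00 (SE 0.07, 95% interval -0.17 to 0.17). The kinases' intervals together ran from -0.24 to 0.19.

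Arrays of the same group differed as well. A member's range over the 7 arrays was 0.11 for Gen1 and 0.48 for Xrcc3 at the ends, with a median of 0.25. Control replicate 2 was the highest array for 13 of 35 members, or 37.1%, against 19.2% of all genes, and control replicate 3 was the lowest for 14, or 40.0%, against 14.5%. The 13 were Ube2t, Fancf, Fancd2, Fanci, Usp48, Brca1, Bard1, Brca2, Rad51b, Rad52, Mre11a, Atm and Atr. For core complex genes deletion replicate 2 was the highest array in 6 of 10, against 13.5% of all genes. E2F words stood before 5 of the 12 members with a promoter entry that were highest on control replicate 2 and before 5 of the other 19.

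S phase genes, such as those of the Mcm helicase and Pcna, were set beside the members because many members share their timing. The median deviation of the 35 members from their own means was -0.03, 0.04 and -0.07 on control replicates 1 to 3 and -0.03, 0.02, 0.04 and 0.00 on deletion replicates 1 to 4. For the 22 measured S phase genes it was -0.02, 0.02 and -0.02 on the control arrays and 0.01, -0.01, 0.04 and -0.01 on the deletion arrays. In both lists control replicate 2 and deletion replicate 3 were the highest arrays. Between the groups 17 of 22 S phase genes were positive, with a median of 0.02, and 0 passed in limma or had an unadjusted p under 0.05. With the arrays centred 10 of 22 were positive, with a median of 0.00, against 42.1% of all genes, with a median of -0.02. With an array left out the count of S phase genes ran from 12, without deletion replicate 3, to 19, without deletion replicate 4. The part of cell cycle timing in the members' values was not tested.

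**Figure D3:**
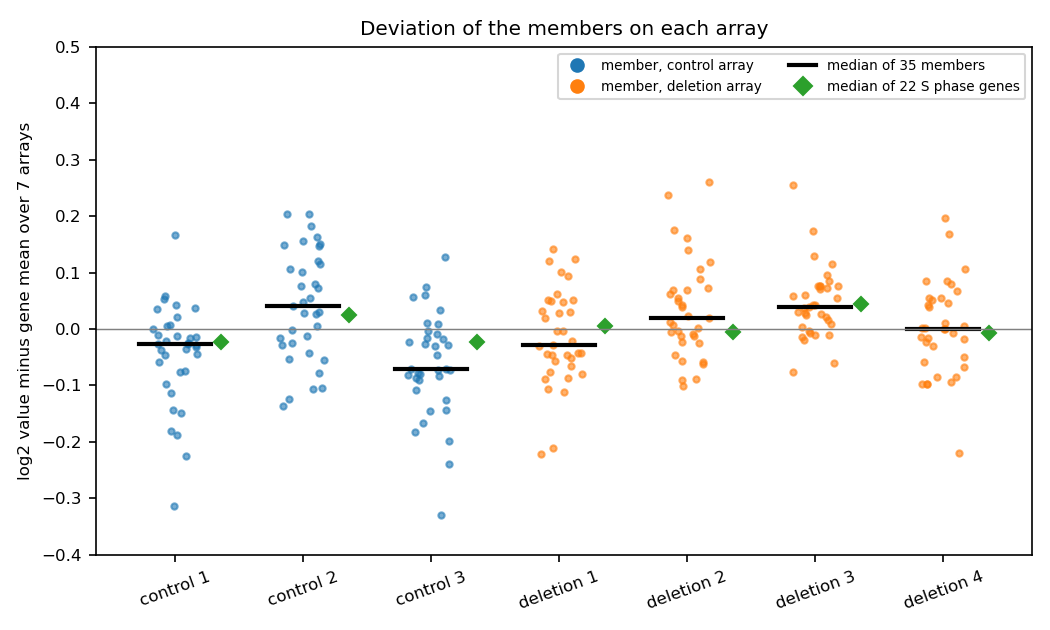
Points are the members' log2 values minus their own mean over 7 arrays, by array, with black bars for the median of the 35 members and diamonds for the median of 22 S phase genes. The member medians run from -0.07 on control replicate 3 to 0.04 on control replicate 2, wider apart than those of the 4 deletion arrays.

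Other genes of the pathway did not pass either. Of 55 measured genes that act beside the members, 0 passed in limma in either direction and 0 had an unadjusted p under 0.05. Differences ran from -0.13 to 0.16 with a median of 0.03, and 33 were positive. With the arrays centred 28 were positive, with a median of 0.00, against 42.1% of all genes, with a median of -0.02. With an array left out the median ran from 0.00, without control replicate 1, to 0.05, without control replicate 2. Ercc1, a subunit of the nuclease that unhooks crosslinks, had the smallest unadjusted p, 0.0556, and read 8.24, 8.33 and 8.29 on the 3 control arrays and 8.57, 8.40, 8.35 and 8.47 on the 4 deletion arrays. All its deletion arrays lay above its control arrays, with a difference of 0.16 (SE 0.07) and an adjusted p of 0.999. The groups did not overlap in 5 of 55, against the 5.19% of all genes given above. Besides Ercc1, and named after their values were seen, these were Rpa1, a subunit of the single-strand binding protein, at 0.11 (SE 0.06), Abraxas1, a scaffold of a Brca1 complex, at 0.10 (SE 0.06), the topoisomerase gene Top3a at -0.13 (SE 0.07) and the helicase gene Blm at -0.06 (SE 0.06).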

How the data were processed

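Total RNA was hybridised to 7 Affymetrix Mouse Gene 2.0 ST arrays. The deposited log2 expression values come from the authors' RMA run in Expression Console, as recorded per the submitters' processing notes. RMA subtracts background, gives arrays a common distribution and summarises probes. Its version and the probeset build were not given in the sources used. Values from 1.87 to 14.0 show the log2 scale. RMA gives no detection call, so low values were not read as absence.

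Of 41345 probesets, 23521 carried exactly 1 symbol in the platform annotation and were tested, and the brightest on average stood for each of 22180 genes. Groups came from the sample titles. R 4.3.3 and limma 3.58.1 were used (lmFit, eBayes, two-sided, no covariate or level filter), with Benjamini-Hochberg adjusted p under 0.05 as the threshold over all tested probesets. The number of arrays limits the precision. An exact permutation test was planned for members with an unadjusted p under 0.05, of which there were none. The fit was tested on simulated data. Deviations of like-numbered arrays correlated at 0.02, 0.06 and -0.10, so the values showed no pairing by number. These correlations cannot show whether the arrays were prepared in numbered pairs.

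The members, roles, other pathway genes (55 of 59 measured), S phase genes (22 of 25) and markers were chosen with earlier results of these data known. All measured members are named. Of the other pathway genes, those at an unadjusted p under 0.05 were to be named or, with none, the one with the smallest p. Alternatives were the set of probesets, level filters, variance priors, array weights, normalization, a replicate block, the probeset rule and leaving out each array.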

Additional observations from a re-analysis of the deposited data

Results flagged for a closer look

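A single deletion array lay far from the other 3 for 2 of the 35 members, by the ratio of its gap to the range of the 4 deletion arrays. About 1 in 20 such groups is picked out by chance. For Fancb deletion replicate 2, at 7.79, lay above the others, at 7.49 to 7.54, a ratio of 0.839. For Bard1 deletion replicate 4, at 9.14, lay below the others, at 9.29 to 9.31, a ratio of 0.918. Both ratios exceed Dixon's 95% critical value for 4 samples.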

How the results depend on the processing

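Under all 17 alternatives, 0 of 35 members passed in limma. The smallest adjusted p of a member was 0.757, for Fancl without control replicate 3. At an unadjusted p under 0.05 in limma the count of members was 0 to 2 when an array was left out and 0 under every other alternative. Eme1 alone had such a p without control replicate 2, as did 5.15% of all genes. Fancl and Xrcc3 had one without deletion replicate 1, as did 3.75% of all genes. The median of the members lay between 0.02 and 0.07. Of 595 member differences over the alternatives, 31 changed sign, none of them called, and 22 members kept their sign throughout. Among the other pathway genes the count at an unadjusted p under 0.05 was 1 with either level filter, 2 with a variance prior with a trend, 1 with array weights, and 0 to 1 with an array left out. Of all genes, 4.42% to 4.94% had such a p with the filters, the trend or the weights, and 3.63% to 7.14% with an array left out.

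With the replicate block, which leaves deletion replicate 4 without weight, 0 members had an unadjusted p under 0.05, their median was 0.04, and 0 genes of all passed, against 2 as reported. Lockd then differed by -3.10 with an adjusted p of 0.109, and with all probesets tested by -3.02 with 0.0991. Leaving out an array gave Lockd differences from -3.10 to -2.78, and its adjusted p was under 0.05 only with deletion replicate 2 or 3 removed. Of the arrays left out in turn, Cdkn1b passed only with deletion replicate 2 removed. The number of arrays limits what can be seen: differences smaller than the intervals could not be told from zero.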
